A study of Homo sapiens with 6 samples.

Results

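Serpins form a family of proteins that share a fold with an exposed reactive centre loop. In the inhibitory members a target protease cuts this loop, the serpin changes shape and the protease is trapped in an inactive complex, so that each molecule acts once. Other members have lost this activity and serve as hormone carriers or as chaperones. The family is divided into lettered clades: clade A holds plasma proteins such as alpha-1-antitrypsin, clade B holds proteins without a classical signal peptide that act mainly inside the cell, clade E holds inhibitors of plasminogen activators and thrombin, and clade H holds the collagen chaperone HSP47.

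The members were all protein-coding genes of the deposited table whose symbol begins with SERPIN, 34 of 58735 genes in all, of which 33 are reported. They were taken whatever their values, but the family was selected on the FPKM of *SERPINB7*, known to be high in *RRM2*-OE-TPC-1 when the family was chosen. The values of *SERPINB7* are therefore given as a description with no test, and the counts of serpin genes below leave it out. The 33 genes were divided into 10 (A), 13 (B), 2 (E), 2 (F), 2 (I) and 1 each (C, D, G and H).

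RNA was sequenced in 3 libraries of wild strain TPC-1, a line of human papillary thyroid carcinoma cells, and in 3 of *RRM2*-OE-TPC-1. The latter is the same line infected with an LV18 lentivirus that carries *RRM2* under a CMV promoter and selected with puromycin. The sources differ on how RNA was selected, as given under the processing. The comparison asks how the transcripts of these cells differ once *RRM2*, a subunit of the ribonucleotide reductase that makes deoxynucleotides, is overexpressed. For wild strain TPC-1 neither a vector nor puromycin is described. The effects of virus, selection and *RRM2* can therefore not be told apart here, and libraries of an empty vector were not analysed here. In the labels, the genotype of *RRM2*-OE-TPC-1 replicates 2 and 3 reads RRM3 and RRM4, whereas all titles give *RRM2*. The values are FPKM, fragment counts divided by gene length and sequencing depth. Gene length here counts all annotated exon bases, used or not, such as 13201 for *SERPINB6* and 3094 for *SERPINB1*. A gene with many unused exon bases can therefore get too low an FPKM. Levels, sums and shares are thus only roughly comparable between genes.

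*RRM2* was at 9.17, 9.05 and 8.52 FPKM in TPC-1 against 50.4, 47.5 and 47.2 FPKM in *RRM2*-OE-TPC-1 (log2 fold change 2.43, adjusted p = 1.11e-08), so the libraries differed in the direction their labels give. Where values of both groups are given side by side, TPC-1 comes first. Each library held 14317091 to 17084067 reads on genes. Of 6 thyroid markers, *PAX8* (69.3 ± 1.84 and 58.5 ± 1.92 FPKM, SD, n = 3 per group) and *FOXE1* (4.30 ± 0.107 and 3.19 ± 0.0799 FPKM) were present in both groups, *TG*, *TSHR* and *SLC5A5* had group means under 0.1 FPKM, and *NKX2-1* had no read. Of 5 epithelial markers, *KRT18* was at 41.2 ± 1.78 FPKM in TPC-1 against 85.2 ± 1.26 FPKM in *RRM2*-OE-TPC-1 (log2 fold change 1.05). *KRT8* was at 2.56 ± 0.223 and 3.48 ± 0.115 FPKM (log2 fold change 0.43), while *KRT19*, *CDH1* and *EPCAM* had group means under 0.1 FPKM. The summed markers of leukocytes (4 genes) lay at 0.349 to 0.410 FPKM in TPC-1 against 0.107 to 0.183 FPKM in *RRM2*-OE-TPC-1, and *LYZ* and *CD3E* had no read. Those of hepatocytes (3 genes) lay at 0 to 0.0441 and 0 to 0.0372 FPKM, with *TTR* at 0. Of 2 endothelial markers, *PECAM1* was at 0.924 ± 0.102 and 0.0588 ± 0.0356 FPKM, and the defining gene *CDH5* had 1 read in 1 library. Of 4 keratinocyte markers, *KRT10* was at 10.3 ± 0.890 and 11.4 ± 0.716 FPKM and *KRT5*, *KRT14* and *KRT1* were at or near 0.

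The serpins present in TPC-1 were few. Of the 33 genes, 12 had no read in any of the 6 libraries, 12 had between 1 and 45 reads over all 6 libraries and did not enter the test, and 9 entered it. The 9 were *SERPINH1*, *SERPINB1*, *SERPINA1*, *SERPINB6*, *SERPINB7*, *SERPINB8*, *SERPINE2*, *SERPINF1* and *SERPINE3*. A gene entered the test with at least 0.5 FPKM and at least 10 reads in at least 3 libraries, and was called at an adjusted p of 0.05 or less with a log2 fold change of at least 1 in either direction on log2(FPKM + 0.1), a scale that understates changes of low genes. *SERPINB7* met this minimum only through the *RRM2*-OE-TPC-1 libraries and so had to differ.

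*SERPINB7* encodes megsin, a clade B protein known from epidermis and kidney. It had 5, 9 and 13 reads in TPC-1 against 301, 348 and 328 reads in *RRM2*-OE-TPC-1. As levels these were 0.114, 0.203 and 0.309 FPKM against 7.90, 7.70 and 7.81 FPKM. All 3 TPC-1 libraries held few reads, all 3 *RRM2*-OE-TPC-1 libraries were nearly equal, and the groups were far apart. The mean went from 0.209 ± 0.0980 to 7.80 ± 0.0968 FPKM (SD, n = 3), which is 37.4 times the TPC-1 level. The reads summed over each group and scaled by depth gave a ratio of 37.7. The difference on the log2 scale was 4.73. Both describe the gene that selected the family and are no evidence for its difference. Ranked among all protein-coding genes with reads, *SERPINB7* moved from percentile 24.7 to percentile 68.2.

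The sequences before the annotated starts of *SERPINB7* are shown because its level differed most among the serpins that entered the test. RefSeq gives 3 starts on GRCh38.p14, all on the plus strand of chromosome 18. Each line gives the bases of the 250 before a start that no annotated exon covers, 5′ to 3′. Capitals mark TATAAA, the TATA box, and TGANTCA, where N is any base. This is wider than the letters bound by AP-1 factors, which have C or G at N.
*SERPINB7* start 1, chr18:63752807-63752934: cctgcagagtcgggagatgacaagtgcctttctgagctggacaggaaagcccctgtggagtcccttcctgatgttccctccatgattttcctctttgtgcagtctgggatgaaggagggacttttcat
*SERPINB7* start 2, chr18:63775168-63775374: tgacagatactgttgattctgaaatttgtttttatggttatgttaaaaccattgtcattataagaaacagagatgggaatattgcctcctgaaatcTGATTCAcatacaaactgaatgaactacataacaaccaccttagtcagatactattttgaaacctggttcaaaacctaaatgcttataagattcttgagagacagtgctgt
*SERPINB7* start 3, chr18:63777531-63777776: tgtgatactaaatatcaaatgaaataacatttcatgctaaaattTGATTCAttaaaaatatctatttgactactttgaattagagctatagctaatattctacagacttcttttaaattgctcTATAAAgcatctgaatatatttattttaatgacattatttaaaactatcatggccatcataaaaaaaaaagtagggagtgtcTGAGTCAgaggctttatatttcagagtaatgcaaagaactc

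The GC content of the 250 bases was 52.0% before start 1, 36.8% before start 2 and 26.0% before start 3, against a median of 58.0% over all promoters. TGANTCA began 154 and 39 bases before start 2 (the nearer match lies in an annotated exon and is not printed) and 206 and 45 bases before start 3, and TATAAA began 127 bases before start 3. Neither was present before start 1. Before starts 2 and 3, N was T in the farther TGANTCA match and G in the nearer one. Since the values are sums over the whole gene, they do not tell which start was used.

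*SERPINE2*, a member whose difference was called, is shown beside it. RefSeq gives 2 starts on the minus strand of chromosome 2, and neither window holds TATAAA or TGANTCA.
*SERPINE2* start 1, chr2:224031479-224031728: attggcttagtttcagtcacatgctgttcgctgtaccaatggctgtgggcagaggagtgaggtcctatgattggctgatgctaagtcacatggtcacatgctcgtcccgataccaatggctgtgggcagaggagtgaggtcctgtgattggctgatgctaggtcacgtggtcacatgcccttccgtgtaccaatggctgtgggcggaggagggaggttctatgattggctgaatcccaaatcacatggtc
*SERPINE2* start 2, chr2:224038805-224038890: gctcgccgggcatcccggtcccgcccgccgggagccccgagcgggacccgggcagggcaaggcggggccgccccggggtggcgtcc

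CANNTG, the E-box, began 233, 164, 156, 87, 79 and 9 bases before start 1 of *SERPINE2*, and 153 and 78 bases before start 2, where both matches lie in an annotated exon and are not printed. In all, 27 serpin genes with 41 windows were in the RefSeq promoter table, among them 8 of the 9 that entered the test. TGANTCA, which reads the same on both strands, was in 9 of 41 serpin windows and in 6.57% of 35116 promoters. The 9 belonged to *SERPINB7* (both windows named above), *SERPINB2*, *SERPINB5*, *SERPINB8*, *SERPINB12*, *SERPINB13*, *SERPINE3* and *SERPINI2*. Only *SERPINB7* (both windows), *SERPINB8* (the nearer match) and *SERPINB13* had C or G at N. The share of all promoters with C or G at N was not counted. *SERPINB8*, the other tested gene on chromosome 18, held TGANTCA 185 and 28 bases before its start, with TATAAA 140 bases before. All 250 bases of this window lie in annotated exons. TATAAA, searched on the coding strand alone, was in 7 windows and in 6.8% of promoters. CAGAC, the SMAD-binding letters, was in 18 windows and 38.0% of promoters, and CANNTG in 28 windows and 61.8%, both searched on both strands. A p53 half-site was in 1 window, that of *SERPINA3*, and in 5.57% of promoters. These matches describe letters in the windows and not bound sites.

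*SERPINE2* encodes protease nexin 1, which inhibits thrombin and uPA at the cell surface. Its levels were 1.84, 1.76 and 1.67 FPKM in TPC-1 against 4.62, 4.29 and 4.67 FPKM in *RRM2*-OE-TPC-1, without overlap. The mean rose 2.58 times, from 1.76 ± 0.0837 to 4.53 ± 0.210 FPKM (log2 fold change 1.32 ± 0.08, SE, adjusted p = 2.44e-06). *SERPINE3*, also of clade E, was at 0.368, 0.433 and 0.601 FPKM against 0.796, 0.716 and 0.554 FPKM. Its groups overlapped, the log2 fold change was 0.48 ± 0.21 (SE) and the adjusted p was 0.0759. It was 0.0357 without TPC-1 replicate 3, but between 0.0501 and 0.208 with any other library left out. Of its 2608 exon bases, 789 are shared with *INTS6* on the other strand (mean 2.92 FPKM). Whether strand was used in counting is not given in the sources used here. It is therefore not known whether reads over the shared bases were counted for *SERPINE3*, for *INTS6* or for neither.

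**Figure D1:**
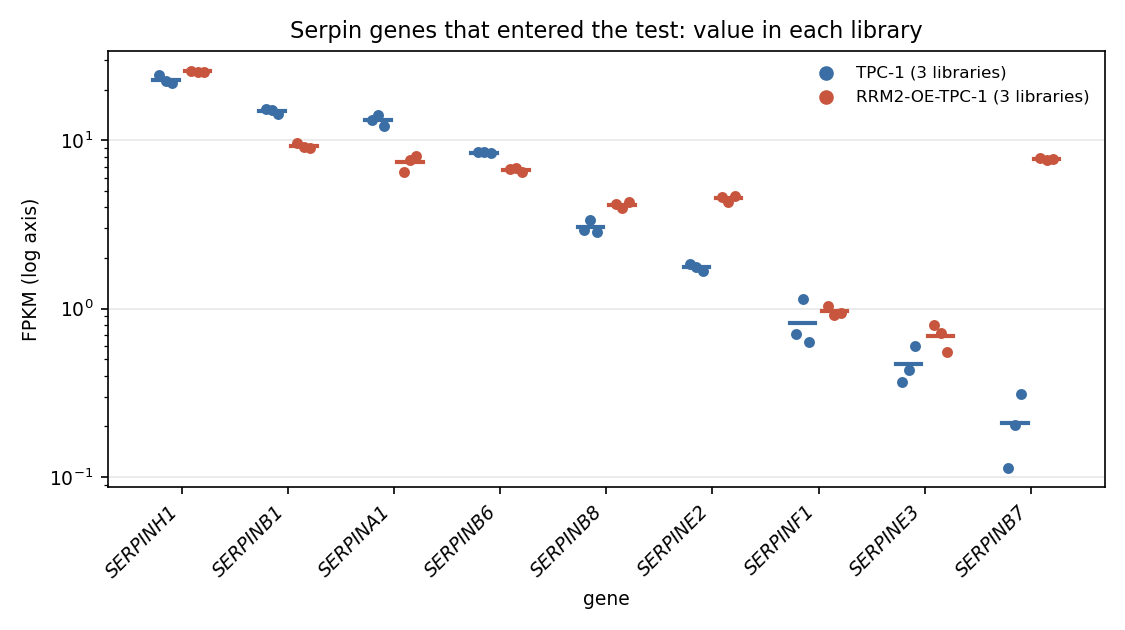
FPKM (log axis) of the 9 serpin genes that entered the test, with a point for each library and a line at the mean of the 3 libraries of each group. *SERPINB7* went from a mean of 0.209 to 7.80 FPKM and *SERPINE2* from 1.76 to 4.53 FPKM, whereas *SERPINA1* and *SERPINB1* were lower in *RRM2*-OE-TPC-1.

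*SERPINA1* encodes alpha-1-antitrypsin, the main inhibitor of neutrophil elastase in plasma. It was the only clade A gene in the test, at 13.3, 14.1 and 12.2 FPKM in TPC-1 against 6.52, 7.63 and 8.05 FPKM in *RRM2*-OE-TPC-1. Every *RRM2*-OE-TPC-1 library was below every TPC-1 library. The mean was 13.2 ± 0.941 against 7.40 ± 0.792 FPKM, 0.561 times the TPC-1 level (log2 fold change -0.83 ± 0.09, SE, adjusted p = 5.73e-05). The change passed the adjusted p but not the fold threshold, so *SERPINA1* was not called.

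Among the intracellular clade B genes, *SERPINB1*, which inhibits the neutrophil proteases elastase, cathepsin G and proteinase 3, was at 15.4, 15.1 and 14.4 FPKM in TPC-1 against 9.62, 9.11 and 9.05 FPKM in *RRM2*-OE-TPC-1. Its level in *RRM2*-OE-TPC-1 was 0.619 times that in TPC-1 (log2 fold change -0.69 ± 0.05, SE, adjusted p = 5.13e-06). *SERPINB6*, an inhibitor of cathepsin G and other serine proteases, was at 8.53, 8.50 and 8.40 FPKM against 6.75, 6.84 and 6.47 FPKM (log2 fold change -0.34 ± 0.05, SE, adjusted p = 2.78e-04). Both were lower without overlap and both stayed short of the fold threshold. *SERPINB8*, an inhibitor of furin, was higher without overlap, at 2.95, 3.35 and 2.87 FPKM against 4.19, 3.97 and 4.30 FPKM (log2 fold change 0.43 ± 0.08, SE, adjusted p = 0.00161), and was not called either. The overlapping genes *HMSD* and *AC009802.1* share 370 and 257 of its 5868 exon bases and had mean levels of 0.0101 and 0.120 FPKM.

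*SERPINH1*, which encodes the collagen chaperone HSP47 of the endoplasmic reticulum, was the most abundant of the 33 serpin genes reported. It was at 24.5, 22.5 and 22.0 FPKM in TPC-1 against 26.0, 25.6 and 25.7 FPKM in *RRM2*-OE-TPC-1. The groups did not overlap, but the difference was small (log2 fold change 0.17 ± 0.05, SE, adjusted p = 0.0119). Scaled to library totals, the log2 fold change of *SERPINH1* was 0.11 (adjusted p = 0.0464), so its size depends in part on the scaling. *SERPINF1*, which encodes the anti-angiogenic factor PEDF and has no inhibitory activity, was at 0.703, 1.14 and 0.634 FPKM against 1.04, 0.913 and 0.941 FPKM. TPC-1 replicate 2 was the highest of all 6 libraries and the groups overlapped (log2 fold change 0.24 ± 0.21, SE, adjusted p = 0.339). Without TPC-1 replicate 2 the log2 fold change was 0.47 (adjusted p = 0.0318), without TPC-1 replicate 1 it was 0.15 and without TPC-1 replicate 3 it was 0.09, so the value rests on single libraries.

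Of the 8 tested serpin genes other than *SERPINB7*, 1 was called higher (*SERPINE2*) and 0 were called lower by limma. Of those with a negative log2 fold change, 3 had an unadjusted p under 0.05, and voom called 0 lower. Over all 13621 tested genes 11.5% were called, 4.48% higher and 6.97% lower. At an adjusted p of 0.05 or less with no fold threshold, 6 of the 8 passed, 3 higher (*SERPINE2*, *SERPINB8* and *SERPINH1*) and 3 lower (*SERPINA1*, *SERPINB1* and *SERPINB6*), against 67.6% of all tested genes. The same 6 had groups that did not overlap, which held for 72.2% of all tested genes. Because the rule rests on the same comparison, these counts are a description. The median log2 fold change was 0.20 over the 8 genes and 0.01 over all tested genes.

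**Figure D2:**
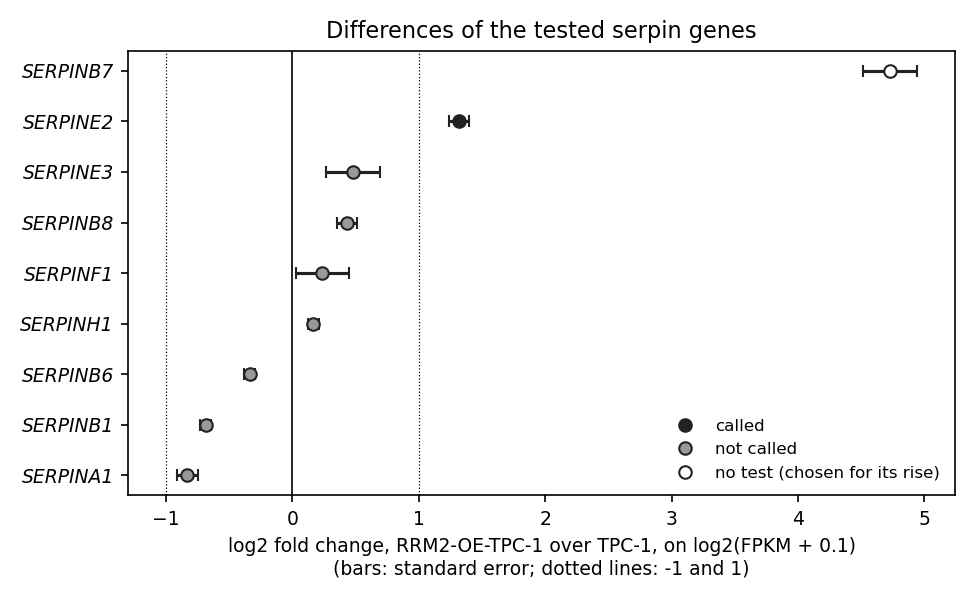
Log2 fold change of each tested serpin gene, *RRM2*-OE-TPC-1 over TPC-1 on log2(FPKM + 0.1), with its standard error (3 libraries per group). Black points were called, grey points were not, and dotted lines mark -1 and 1. *SERPINB7* (open point, 4.73) has no test, and its bar is a description.

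The summed level of the 33 serpin genes differed little between the groups when *SERPINB7* was counted, and was lower in *RRM2*-OE-TPC-1 when it was not. With *SERPINB7* the sum was 68.8, 68.1 and 64.0 FPKM in TPC-1 against 68.1, 67.5 and 68.3 FPKM in *RRM2*-OE-TPC-1, with means of 67.0 ± 2.61 and 68.0 ± 0.410 FPKM. Without it the sum was 68.7, 67.9 and 63.7 FPKM against 60.2, 59.8 and 60.5 FPKM, with means of 66.7 ± 2.70 and 60.1 ± 0.344 FPKM. *SERPINB7* made up 0.312% of the sum in TPC-1 against 11.5% in *RRM2*-OE-TPC-1. *SERPINE2* went from 2.62% to 6.66%. *SERPINB1* went from 22.3% to 13.6%, *SERPINA1* from 19.7% to 10.9% and *SERPINB6* from 12.7% to 9.84%, and *SERPINH1* stood at 34.3% and 37.9%. Clade A as a whole was at 13.6 ± 1.03 and 7.62 ± 0.872 FPKM. Clade B was at 26.8 ± 0.672 and 28.1 ± 0.486 FPKM with *SERPINB7*, and at 26.6 ± 0.754 and 20.3 ± 0.414 FPKM without it. The 19 genes of secreted serpins were at 17.2 ± 1.17 and 14.1 ± 0.710 FPKM. Sums over chosen members carry no test.

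**Figure D3:**
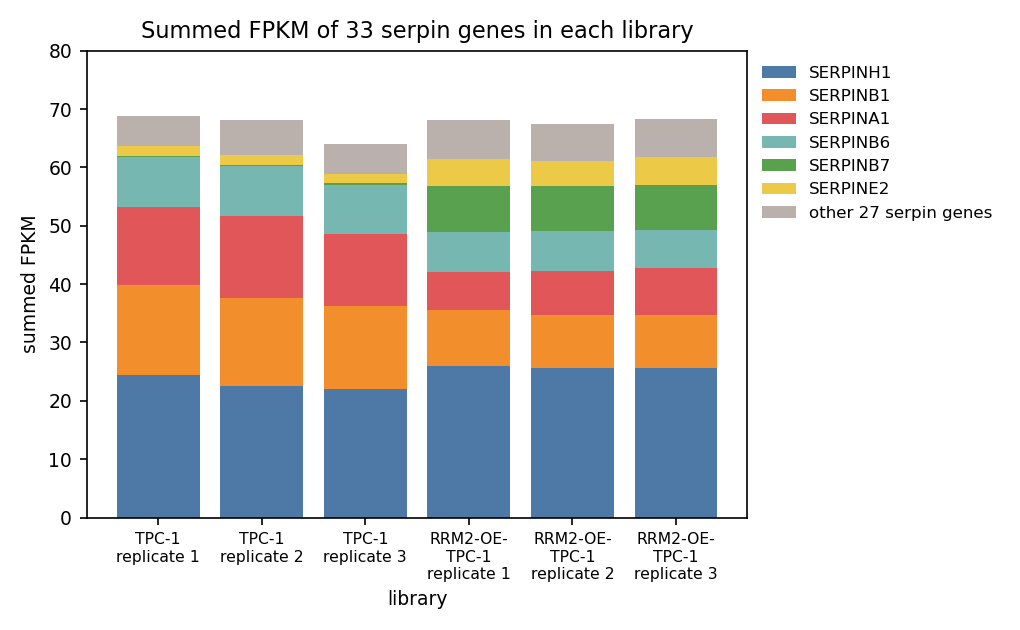
Summed FPKM of the 33 serpin genes in each of the 6 libraries, stacked by gene from 0. The totals lie between 64.0 and 68.8 FPKM, and the *SERPINB7* segment is visible mainly in the 3 *RRM2*-OE-TPC-1 libraries, where *SERPINB1* and *SERPINA1* are smaller.

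The 12 genes with reads that did not enter the test were counted rather than tested. *SERPINF2*, which encodes the plasmin inhibitor alpha-2-antiplasmin, had 8, 15 and 14 reads in TPC-1 against 0, 2 and 2 in *RRM2*-OE-TPC-1. The depth-scaled ratio of summed reads was 0.112, with a 95% exact binomial interval of 0.0291 to 0.313 that covers counting error only. In the fit without a minimum the log2 fold change was -1.64 with an adjusted p of 0.0118. This was a call (7.37% of the 30958 genes of that fit were called). *SERPINI1*, which encodes the tPA inhibitor neuroserpin, had 1, 0 and 1 reads against 3, 3 and 5 (log2 fold change 0.74, adjusted p = 0.0492 in the same fit, not called). *SERPINC1*, which encodes antithrombin, had 7, 2 and 4 reads against 1, 2 and 0 (adjusted p = 0.141). *SERPINA6*, which encodes the cortisol carrier of plasma, had 10, 13 and 7 reads against 3, 3 and 9 (adjusted p = 0.259). *SERPIND1*, which encodes heparin cofactor 2, had 7, 0 and 2 reads against 6, 6 and 4. For *SERPINB3* and *SERPINB4*, the squamous cell carcinoma antigens, the reads were 0, 3 and 2 against 2, 3 and 1, and 2, 1 and 0 against 1, 3 and 3. The transcripts of this pair share 57 stretches of 100 bases, so their reads can be split wrongly. *SERPINB2* and *SERPINB10* share 450 such stretches and 547 exon bases on the same strand, and *SERPINA3* shares 1592 of its 5007 exon bases with *AL049839.2*, so their counts carry the same limit. *SERPINA10* had 2, 3 and 3 reads against 3, 1 and 2. *SERPINB2*, which encodes an inhibitor of uPA, had none in TPC-1 against 3, 1 and 0 in *RRM2*-OE-TPC-1. *SERPINA12* had 3 reads in 1 library of *RRM2*-OE-TPC-1, *SERPINB5* (maspin) had 1 read there, and *SERPINB9*, the granzyme B inhibitor, had 1 read in TPC-1.

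No read was found for *SERPINA3*, *SERPINA4*, *SERPINA5*, *SERPINA7*, *SERPINA9*, *SERPINA11*, *SERPINB10*, *SERPINB11*, *SERPINB12*, *SERPINB13*, *SERPING1* and *SERPINI2*. Among them are the C1 inhibitor (*SERPING1*) and thyroxine-binding globulin (*SERPINA7*), the plasma carrier of thyroid hormone. A count of 0 over the 6 libraries allows 3 reads, which is 0.00618 to 0.0242 FPKM depending on gene length, so lower levels were not detectable at this depth.

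The clade B genes lie in a block on chromosome 18 and another on chromosome 6. On chromosome 18 (GRCh38, chr18:63476761-64019779), 10 serpin genes span 543 kb. Only *SERPINB7* (chr18:63752935-63805376) and *SERPINB8* (chr18:63969925-64019779) entered the test there, 4 had a few reads and 4 had none. On one side of *SERPINB7* lie *SERPINB11* (chr18:63647579-63726432), which had no read, and *SERPINB3* within its span, and on the other side lies *SERPINB2*. *SERPINB3* and *SERPINB2* were at 0.0570 and 0.0706 FPKM, and at 0 and 0.0323 FPKM in turn. The high level of *SERPINB7* was thus not seen in the serpin genes next to it. Of the genes flanking the block, *KDSR* had a log2 fold change of 0.04 (adjusted p = 0.680) and *VPS4B* of 0.34 (adjusted p = 2.68e-04), and *CDH7* and *CDH19* had no read.

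On chromosome 6 (chr6:2832332-2972165), *SERPINB1*, *SERPINB9* and *SERPINB6* span 140 kb. Both tested genes were lower in *RRM2*-OE-TPC-1, as given above. Between *SERPINB1* and *SERPINB9* lies *SERPINB9P1*, a non-coding gene outside the family rule, at 6.28, 6.72 and 6.58 FPKM in TPC-1 against 1.28, 1.88 and 1.42 FPKM in *RRM2*-OE-TPC-1. It fell (log2 fold change -2.04 ± 0.13, SE, adjusted p = 3.68e-06) and was called. Whether its reads could come from *SERPINB9*, which had 1 read, was not tested. *MIR4645*, a microRNA gene beside it on the same strand, was also called lower (log2 fold change -2.25) on 49 reads in all. *MIR4645* met the minimum only through the TPC-1 libraries, where it was high. Whether its reads belong to longer transcripts such as that of *SERPINB9P1* was not tested, so they are not taken as a level of the microRNA. The flanking genes *WRNIP1* (log2 fold change 0.17, adjusted p = 0.0161), *NQO2* (-0.23, adjusted p = 0.0647) and *RIPK1* (-0.06, adjusted p = 0.245) were not called, and *MYLK4* did not enter the test.

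The clade A genes on chromosome 14 (chr14:94280455-94624646) are 9 in 344 kb, of which *SERPINA1* (chr14:94376747-94390693) entered the test, 3 had a few reads and 5 had none. *SERPINA6* was at 0.326 FPKM in TPC-1, and at 0.171 FPKM in *RRM2*-OE-TPC-1. Next to the block, *IFI27L2* had a log2 fold change of -0.31 (adjusted p = 0.00367) and *DICER1* of 0.22 (adjusted p = 0.00407), neither called, and *GSC* had no read.

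**Figure D4:**
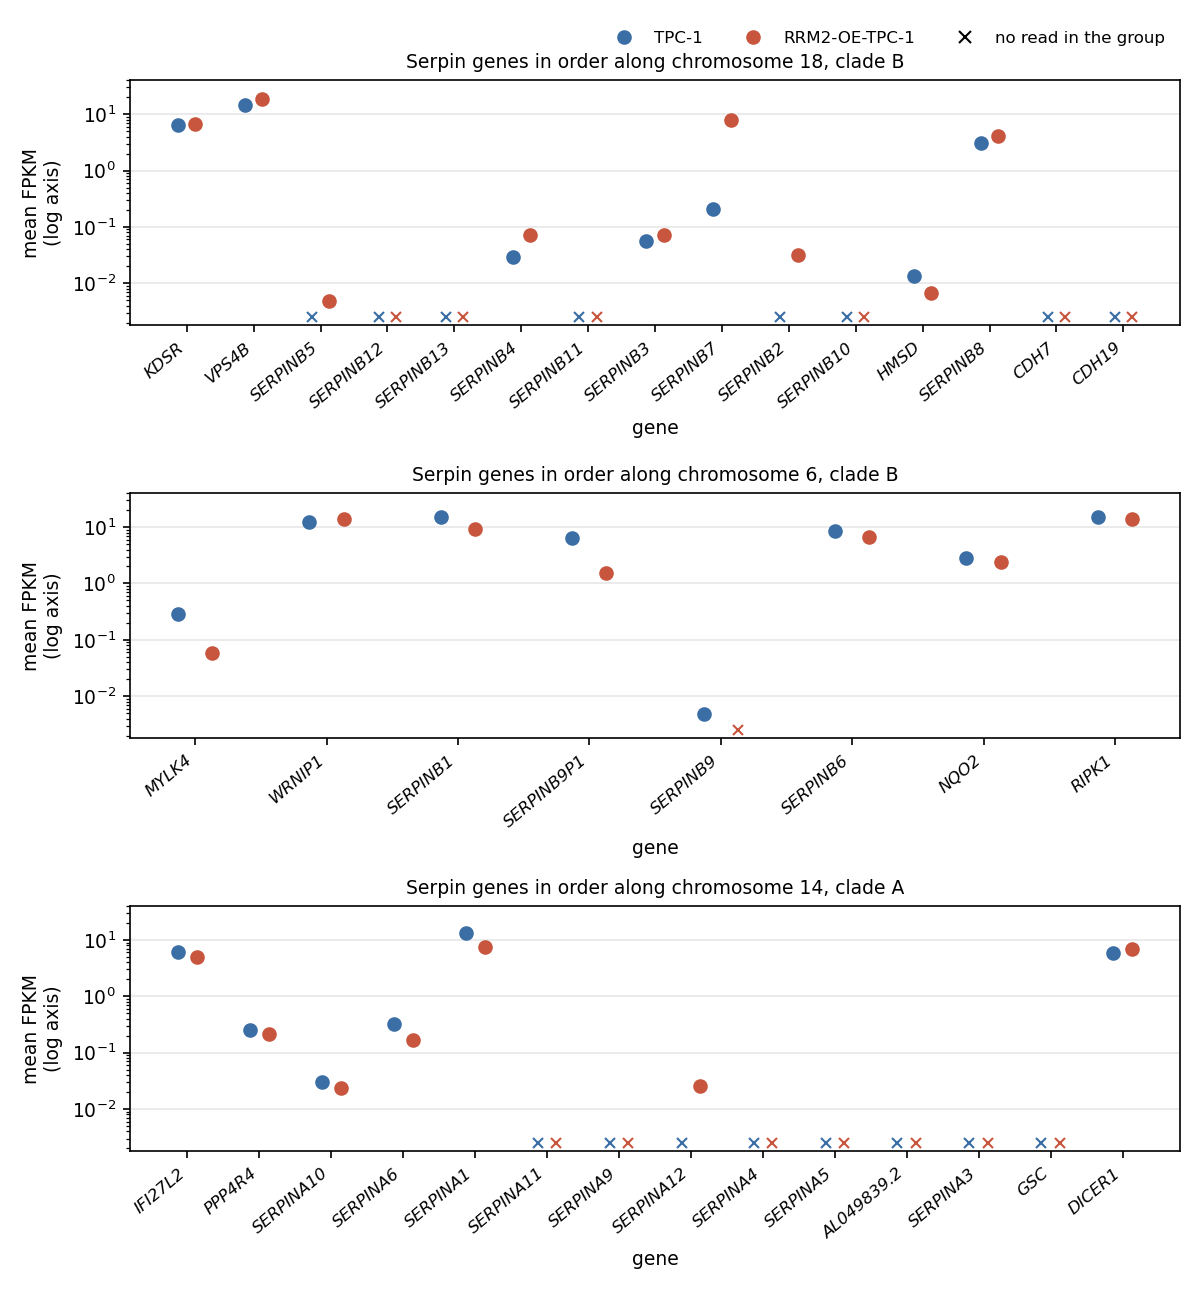
Mean FPKM per group (log axis, 3 libraries each) of the serpin genes and other named genes in their order along chromosomes 18, 6 and 14, with crosses at the foot for genes with no read in a group. On chromosome 18 *SERPINB7* differs between the groups (0.209 and 7.80 FPKM) while *SERPINB3* and *SERPINB2* near it stay below 0.1 FPKM.

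The plasminogen activators and their receptor were measured too. *PLAU*, which encodes uPA, was at 64.2, 55.3 and 59.2 FPKM in TPC-1 against 144, 136 and 139 FPKM in *RRM2*-OE-TPC-1 (log2 fold change 1.23 ± 0.05, SE, adjusted p = 6.66e-07). *PLAUR*, which encodes its receptor, was at 4.54, 4.66 and 4.41 FPKM against 13.7, 13.1 and 12.2 FPKM (log2 fold change 1.50 ± 0.06, SE, adjusted p = 2.88e-07). Both rose and were called, as *SERPINE2* was. The level of *PLAU* was above the sum of the 33 reported serpin genes in *RRM2*-OE-TPC-1 and far above that of *SERPINE2* in both groups. *PLAT*, which encodes tPA, was at 1.56, 1.29 and 1.59 FPKM against 1.77, 2.11 and 2.12 FPKM (log2 fold change 0.41 ± 0.12, SE, adjusted p = 0.0166) and was not called. Of a list of 16 genes of plasminogen activation, 11 were tested, 2 were called higher (*PLAU* and *PLAUR*) and 1 lower, against 4.48% and 6.97% of all tested genes, with a median log2 fold change of 0.12. The lower gene was *MRC2*, a collagen receptor that binds the uPA receptor, at 38.7 ± 1.64 and 15.3 ± 0.240 FPKM (log2 fold change -1.33). *ENO1* and *S100A10*, the most abundant genes of the list and both plasminogen-binding proteins at the cell surface, had log2 fold changes of -0.06 and 0.23 and were not called.

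**Figure D5:**
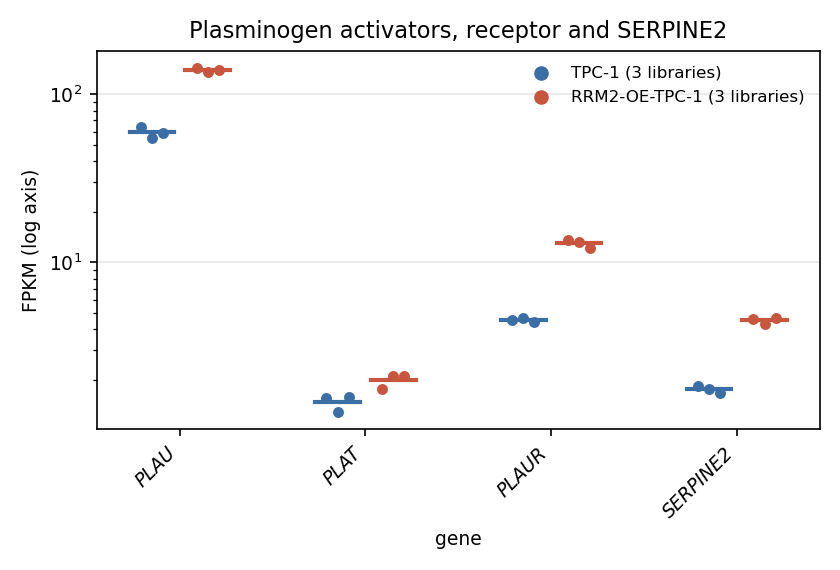
FPKM (log axis) in each library of the plasminogen activator genes *PLAU* and *PLAT*, the receptor gene *PLAUR* and the inhibitor gene *SERPINE2*, with lines at the group means. *PLAU*, *PLAUR* and *SERPINE2* were called higher in *RRM2*-OE-TPC-1, whereas the *PLAT* groups differ less (1.48 and 2.00 FPKM).

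Of 22 coagulation proteases, cofactors and receptors, 12 were tested, with a median log2 fold change of 0.01. Of the 12, 4 were called higher and 2 lower (4.48% and 6.97% of all tested genes). The list holds targets of antithrombin and protease nexin 1, but the gene of thrombin was not among the 12. The 12 encode receptors, cofactors, inhibitors, enzymes of vitamin K use and protein Z (*PROZ*), so the counts do not describe the target proteases. *F2RL1*, which encodes a protease-activated receptor cut by trypsin-like proteases, fell from 4.54 ± 0.208 to 0.429 ± 0.166 FPKM (log2 fold change -3.18, adjusted p = 4.04e-06), and 1 of the 3 *RRM2*-OE-TPC-1 libraries met the minimum. *F2RL2*, which encodes another such receptor that responds to thrombin, was at 0.230 ± 0.0306 and 1.63 ± 0.223 FPKM (2.39). It is among the 4 called higher, but met the minimum only through the *RRM2*-OE-TPC-1 libraries and so had to differ, as did *PROZ* (1.32), which is named after its values were seen. *TFPI2*, a Kunitz-type inhibitor, rose from 5.31 ± 0.729 to 14.7 ± 0.807 FPKM (1.46). *PROCR*, the protein C receptor, was at 9.83 ± 0.350 and 19.1 ± 1.84 FPKM (0.95) and was not called.

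The proteases of leukocyte granules, among them known targets of the *SERPINA1* and *SERPINB1* proteins, did not reach the minimum of the test. None of 13 leukocyte granule serine protease genes entered the test, and 5 of them had any read. None of 15 kallikrein genes entered it, and 3 had any read. Of 11 cysteine cathepsin genes 7 were tested and 1 was called (11.5% of all tested genes), *CTSV*, which rose from 0.897 ± 0.107 to 2.74 ± 0.245 FPKM (log2 fold change 1.51). The abundant *CTSZ* and *CTSB* had log2 fold changes of -0.14 and 0.01. The median of the 7 was 0.01. Of 28 membrane-bound and secreted trypsin-like and furin-like protease genes 5 were tested, with a median log2 fold change of -0.34. Of the 5, 1 was called (11.5% of all tested genes): *PRSS23* rose from 8.51 ± 0.121 to 28.5 ± 0.593 FPKM (1.73). *FURIN*, the target of the *SERPINB8* protein, was at 23.0 ± 1.87 and 17.2 ± 0.223 FPKM (-0.42, adjusted p = 3.08e-04) and was not called. Of 8 complement C1 and lectin pathway genes 2 were tested and 1 was called (11.5% of all tested genes), with a median of -1.40. *C1RL* fell from 11.4 ± 0.301 to 2.51 ± 0.296 FPKM (-2.14) and was called, and *MASP2* (-0.66, adjusted p = 0.0178) was not.

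HSP47 works beside other proteins that fold collagen. Of 20 such genes 19 were tested and 0 were called by limma (17 had an unadjusted p under 0.05, and voom called 1), with a median log2 fold change of 0.23. Over all 13621 tested genes limma called 11.5% and voom called 1734, and 67.6% passed the adjusted p alone. The most abundant were *FKBP10*, at 154 ± 1.47 and 78.1 ± 1.50 FPKM (-0.98), and *P4HB*, at 91.1 ± 3.31 and 107 ± 3.15 FPKM (0.23). By an adjusted p of 0.05 or less alone, without the fold threshold, *FKBP10* (adjusted p = 1.28e-07) and *P4HB* (adjusted p = 9.88e-04) both passed. The direction of *SERPINH1* was that of *P4HB* and not that of *FKBP10*.

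Of 54 protease inhibitor genes outside the serpin family 15 were tested, 2 were called higher and 2 lower (4.48% and 6.97% of all tested genes), with a median log2 fold change of 0.06. *SLPI*, which encodes a secreted inhibitor of neutrophil elastase, was at 382, 353 and 389 FPKM in TPC-1 against 155, 126 and 131 FPKM in *RRM2*-OE-TPC-1 (log2 fold change -1.45 ± 0.08, SE, adjusted p = 1.54e-06). *SLPI* was thus more abundant than the 33 serpins together in both groups. *AMBP*, the precursor of the inhibitor bikunin, fell from 8.12 ± 0.853 to 1.52 ± 0.108 FPKM (-2.34). *CST6*, a cystatin and the other gene called higher beside *TFPI2*, was at 0.346 ± 0.117 and 1.28 ± 0.174 FPKM (1.65), and it too met the minimum only through the *RRM2*-OE-TPC-1 libraries. *APLP2*, which has a Kunitz inhibitor domain, was at 143 ± 1.67 and 73.2 ± 2.70 FPKM (-0.97) and was not called.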

How the data were processed

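Paired reads of 6 libraries were cleaned with fastp, aligned with HISAT2 2.0.5 and counted per gene with featureCounts 1.5.0, and the authors deposited FPKM, that is counts divided by gene length and sequencing depth. The submitters' processing notes name GRCh38 p14 and DESeq2 1.20.0, and strand use in counting is not given in the sources used here. The positions of the 33 reported serpin genes were those of GENCODE 29. The labels describe rRNA removal with RNase R, whereas the methods of the paper describe poly(A) selection. Whether the values measure mRNA alone is therefore not known here.

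The FPKM values gave back whole reads (100% within a tolerance of 0.01), with 14317091 to 17084067 reads on genes per library. Genes with at least 0.5 FPKM and 10 reads in at least 3 libraries were tested with limma 3.58.1 (R 4.3.3; lmFit and eBayes with trend) on log2(FPKM + 0.1), with Benjamini-Hochberg adjustment over 13621 genes. Counts, sums and figures were made with pandas 2.3.3, numpy 2.4.6, matplotlib 3.10.9 and scipy 1.17.1 in Python 3.11.15. Replicates were stated to be biological triplicates, but their spread was uneven. The mean squared difference relative to counting error was 1.9 between *RRM2*-OE-TPC-1 replicates 2 and 3. It was 6.1 and 7.0 between replicate 1 and these, and 3.32 to 3.82 between TPC-1 replicates. Why was not tested. The alternatives were other filters, pseudocounts and scalings, voom, a replicate block, other call rules and each library left out in turn.

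The named genes are the serpin genes, *PLAU*, *PLAUR*, *PLAT*, *RRM2*, genes next to the serpin blocks, and per list the 2 most abundant tested genes and the called gene with the largest change in each direction. The members and lists were chosen with earlier results of these data known. Protein sequences were not used here, and 1 serpin gene and 1 marker that the rules cover are not reported here. Promoter sequences are those of RefSeq (GRCh38.p14).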

Additional observations from a re-analysis of the deposited data

How the results depend on the processing

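The count of serpin genes called, without *SERPINB7*, was 1 (*SERPINE2*) under the FPKM minimum alone, pseudocounts of 1 and 0.01, library totals, median-of-ratios factors, voom on recovered reads and a test against a change of 1, and 1 to 1 with each library left out in turn. With the adjusted p alone it was 6. Without a filter on low values it was 2, *SERPINF2* being added as lower. None of the 8 tested serpin genes other than *SERPINB7* changed direction under any alternative run. The log2 fold change of *SERPINB7* was 2.87 with a pseudocount of 1, 5.26 with a pseudocount of 0.01 and 5.26 with voom, against 4.73. Scaling to library totals moved the median of all genes from 0.01 to -0.05. Over all tested genes, 1560 were called, 716 with a pseudocount of 1, 618 with the test against a change of 1, 9207 with the adjusted p alone, 2281 without a filter and 1734 with voom.

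The replicate numbers did not pair the samples: deviations from the group means of same-numbered libraries correlated at -0.0105, -0.00602 and -0.0550, and all 9 combinations lay between -0.0550 and 0.0614. With the number as a replicate block 1 serpin gene was called, and 1566 over all genes. Depth limits the genes with few reads, and *SERPINB7* in TPC-1 rests on 27 reads.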
